A study of Ursus arctos with 12 samples.

Results

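The ubiquitin-specific peptidases (USPs) were examined in the vastus lateralis, a thigh muscle, of 6 free-ranging brown bears (Ursus arctos) aged 2 to 3 years. The same animals were biopsied during winter hibernation and again in their active summer period, which gave 6 winter and 6 summer libraries. The members were all genes of the count table whose symbol starts with USP followed by a digit and that had 30 or more reads summed over the 12 libraries. This rule kept 46 of the 49 genes so named, out of 17290 genes tested and 30249 in the table. USP50, USP43 and USP26 were left out with 9, 3 and 0 reads. One member, USP6NL, shares only its name with the family, since it encodes a GTPase-activating protein and not a peptidase.

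Ubiquitin is a small protein that E3 ligases attach to other proteins, singly or as chains, to mark them for the proteasome, for lysosomes or for a change in activity. USPs are cysteine proteases that cut ubiquitin off again, and they form the largest class of deubiquitinating enzymes. Each acts on its own set of substrates, from histones and p53 regulators to receptors and misfolded proteins. In muscle, the ubiquitin-proteasome system breaks down contractile proteins during atrophy, and several USPs trim the ubiquitin marks of the TGF-β and BMP signaling pathways.

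Reads on genes ranged from 20191068 to 27283155 per summer library and from 16742406 to 32140160 per winter library. Levels are given in CPM, which are counts scaled to library size with TMM factors, as the lowest, median and highest of the 6 libraries of a season. Since no transcript lengths were used, these levels compare libraries and not genes. Fold changes (FC, winter over summer) come from edgeR's quasi-likelihood test with the bear as a paired term, each with its standard error (SE), and a gene was called at a Benjamini-Hochberg adjusted p below 0.05 over all tested genes. A value beside an adjusted p that has no unit of its own is a log2 fold change (log2FC). Of all tested genes, 19.6% were called higher in winter and 21.2% lower, and the marker counts that follow stand against these shares. Muscle fibre genes held 113020 to 191520 summed CPM over 10 markers in summer and 115940 to 151720 in winter, with 1 called higher and 4 lower. Called lower in winter were 7 of 8 fibroblast markers (summed CPM 4234.5 to 11366 in summer, 280.3 to 1694.6 in winter), 5 of 7 endothelial markers (629 to 959 and 424 to 483), 3 of 6 smooth muscle and pericyte markers (500.1 to 634 and 281 to 357) and 5 of 8 leukocyte markers (59.96 to 114 and 43.9 to 79.1). Satellite cell markers were lower for 3 of 4 and Schwann cell markers for 1 of 5, while the 6 adipocyte markers and the 1 erythroid marker were not called. The adipocyte sum was uneven between libraries. It was 741.5 CPM in the summer library of bear 1316 and 191.6 to 262.2 in the other summer libraries. In winter it was 507.5 CPM in bear 1511 and 108.1 to 235.4 in the others. Every marker of the muscle fibre, fibroblast, endothelial, smooth muscle and leukocyte lists had a read in every library. In such bulk samples, fewer cells of a type and less RNA per cell cannot be told apart, and the part of these cells in the USP levels was not tested.

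In winter, 19 of the 46 USP genes were higher and 5 were lower than in summer, while 22 were not called. Over all tested genes, 19.6% were called higher and 21.2% lower. Among the 12619 genes with at least as many reads as the least read USP gene, the shares were 21.2% and 24.4%. The median log2FC of the members was 0.22, against −0.01 over all genes, and their fold changes were moderate, between 0.498 for USP15 and 1.96 for USP27X. With the stricter limits of an adjusted p below 0.01 and a FC above 1.3 or below 0.77, 11 members were higher and 2 (USP15 and USP31) lower, where the background was 12.2% and 13.4%. Leaving out bear 1305 lowered the number of higher members to 12, and leaving out bear 1512 lowered the number of lower members to 3. Under the stricter limits library totals gave 4 higher and 2 lower, and the number higher was 5 without bear 1305, 5 without 1316, 7 without 1317, 7 without 1511 and 4 without 1512. The number lower under these limits was 1 without bear 1305, 1317, 1511 or 1512.

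**Figure D1:**
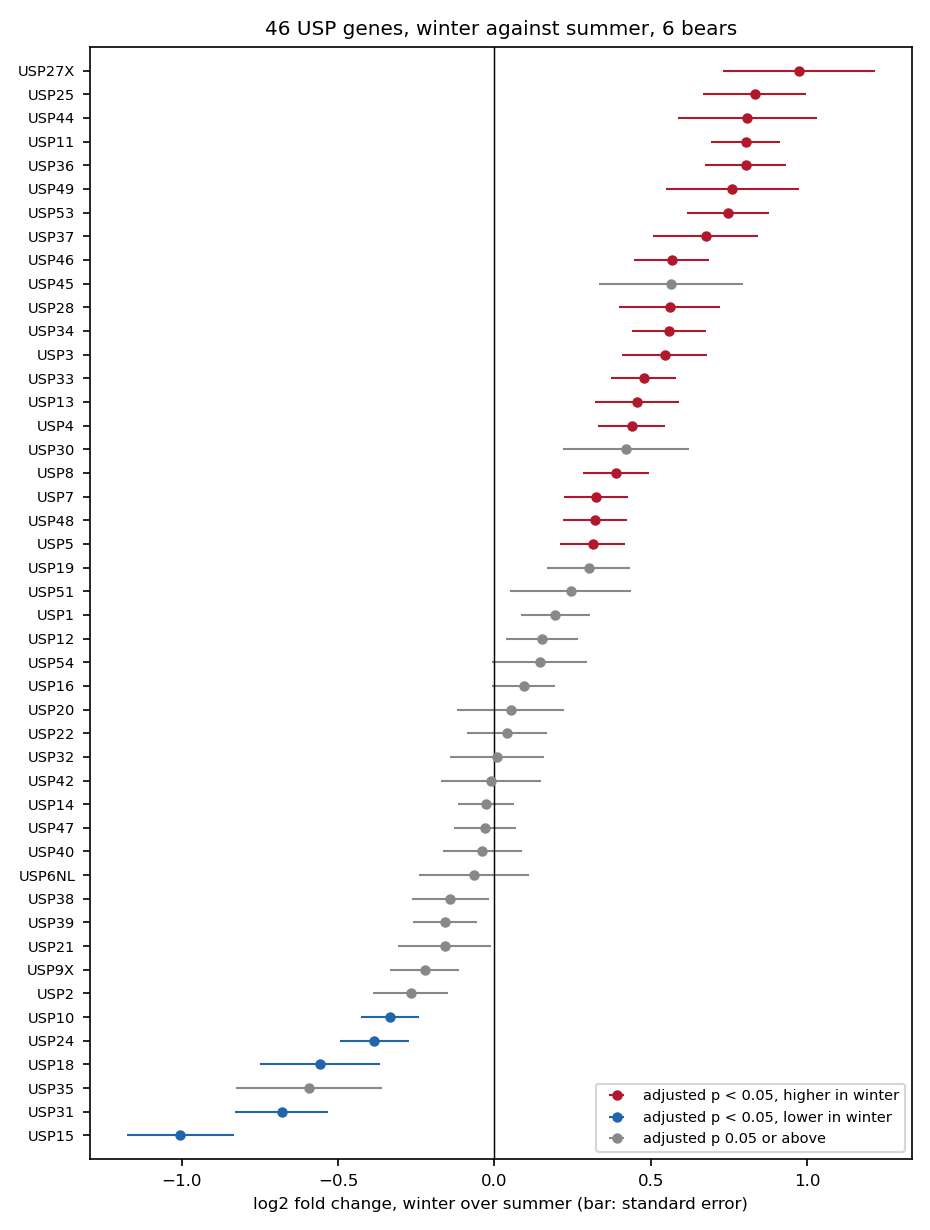
Log2 fold change (x axis, winter over summer) of the 46 USP genes (y axis, ordered by fold change), with points for the estimate and bars for its standard error over 6 bears. The 19 genes called higher (red) reach 0.97 for USP27X, the 5 called lower (blue) reach −1.004 for USP15, and the 22 others are grey.

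The study lists 5 members among the regulators of TGF-β and BMP signaling, of which 2 were higher, 2 were lower and 1 was not called. Over all 46 members, 41.3% were higher and 10.9% lower. Close relatives among the 5, USP4, USP11 and USP15, carry the same arrangement of an N-terminal DUSP domain and ubiquitin-like domains. All of them act on TGF-β receptor or SMAD proteins. USP11 lay at 139, 149.6 and 158 CPM in summer and at 198, 269.9 and 311 CPM in winter. All winter libraries were above all summer libraries, which themselves spanned a narrow range. This was a rise from 7.22 ± 0.07 to 8.02 ± 0.24 on the log2 CPM scale (mean ± SD, n = 6), a log2FC of 0.80 (SE = 0.11, adjusted p = 0.000320), with single bears from 0.43 to 1.03. USP4 also rose without overlap between the seasons, from 66.8, 73.9 and 81.0 CPM in summer to 86.5, 100.1 and 119 CPM in winter (FC = 1.36, adjusted p = 0.00797). The increase was smallest in bear 1509, at 0.09 on the log2 scale.

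USP15 went the other way and showed the largest fall of the family. It lay at 62.9, 87.5 and 104 CPM in summer and at 31.2, 39.8 and 78.3 CPM in winter, from 6.45 ± 0.26 to 5.45 ± 0.49 on the log2 CPM scale (mean ± SD, n = 6). The log2 fold change was −1.004 (SE = 0.17, adjusted p = 0.00108), lower in 6 of 6 bears. The winter library of bear 1509 was the highest of its season at 78.3 CPM, within the summer range. The other 5 winter libraries, at 31.2 to 52.5 CPM, were all below the lowest summer library. Without bear 1509 the log2 fold change was −1.16. The summed fibroblast markers were at 1533.4 CPM in the winter library of bear 1509 and 1694.6 CPM in that of bear 1511. In the other winter libraries they were at 280.3 to 626 CPM. The winter USP15 level was 78.3 CPM in bear 1509 and 38.0 CPM in bear 1511. The winter library of bear 1509 also had the highest Schwann cell sum of its season, 147.1 CPM against 39.8 to 83.3. Its muscle fibre and satellite cell sums were the lowest of the winter, at 115940 and 5.96 CPM against 133520 to 151720 and 14.4 to 27.3. It had the fewest reads, 16742406. The part of fibroblasts, of these other cell types and of depth in the USP15 level was not tested. The opposite changes moved the balance of reads within this trio. For each USP15 read there were 1.35 to 2.42 USP11 reads in summer and 2.54 to 9.20 in winter, with a median of 1.67 and then 6.57. The ratio of USP4 to USP15 reads moved in the same direction in 6 of 6 bears, from a median of 0.843 to 2.64. The direction of both ratios follows from the changes of the 3 genes in each bear and adds no separate result. The smallest shift of both ratios was again in bear 1509.

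**Figure D2:**
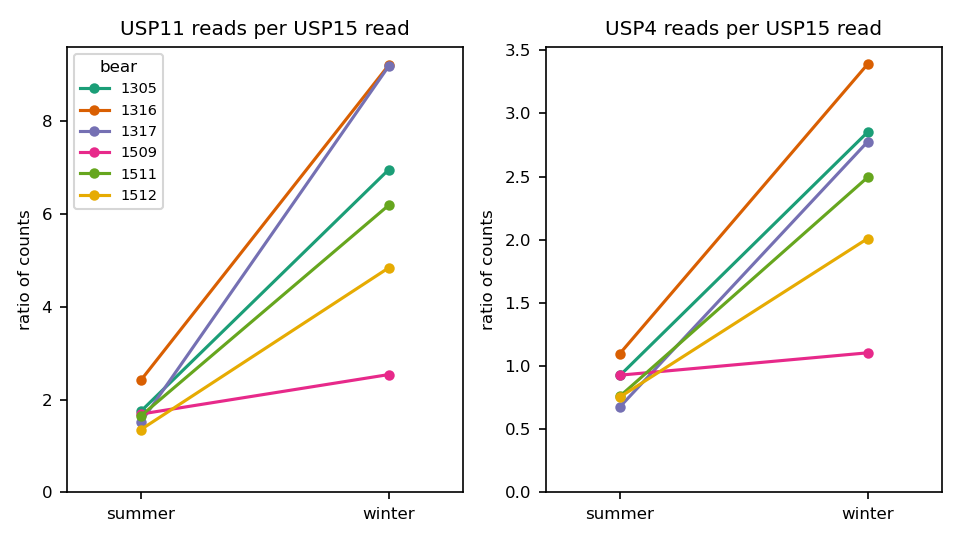
Ratio of USP11 to USP15 counts (left) and of USP4 to USP15 counts (right) on the y axes, in summer and winter on the x axes, with 1 line per bear. Both ratios were higher in winter in 6 of 6 bears, as follows from the rise of USP11 and USP4 and the fall of USP15 in each. Bear 1509 ended lowest in winter at 2.54 and 1.11. Gene length was not corrected for, so the ratios compare seasons and not transcript numbers.

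USP18, which removes the ubiquitin-like protein ISG15 and restrains signaling from the type I interferon receptor, had only 46 to 213 reads per library. It was at 3.61, 5.71 and 9.35 CPM in summer and 2.77, 3.89 and 6.29 CPM in winter, and the seasons overlapped. Its log2 fold change was −0.56 (SE = 0.19, adjusted p = 0.0384) with 5 of 6 bears lower. This call was lost without the bear as a paired term (adjusted p = 0.0846), and also without bear 1316 (0.117), 1509 (0.0634), 1511 (0.0746) or 1512 (0.109), within 0.0196 to 0.117 over all alternatives. Of 7 genes tested around ISG15, 3 were lower in winter and 4 were not called, where 21.2% of all tested genes were lower. The 3 lower were ISG15 itself (log2FC −1.43, adjusted p = 0.00894), the interferon signal transducer STAT2 (−0.48, adjusted p = 0.00610) and the receptor chain IFNAR1 (−0.38, adjusted p = 0.0170), each in 6 of 6 bears. The 4 not called went either way, with HERC5 at 0.34, UBE2L6 at 0.22, UBA7 at −0.006 and HERC6 at −0.23.

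USP9X, a large enzyme that activates SMAD4 by removing its ubiquitin, was not called. It ranged over 126, 190.4 and 235 CPM in summer and 108, 159 and 219 CPM in winter, with a log2FC of −0.22 (SE = 0.11, adjusted p = 0.130) and 5 of 6 bears lower. Bear 1509 was the exception, at 194 CPM in summer and 219 in winter, and without it the adjusted p was 0.0424 (up to 0.458 in the other alternatives). USP24, a relative of USP9X, fell from 221, 303 and 329 CPM in summer to 192, 225 and 259 CPM in winter (FC = 0.767, SE = 0.11, adjusted p = 0.0171) in 6 of 6 bears. Its seasons overlapped through 1 summer library, that of bear 1316.

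Among 8 members that act on histones and chromatin, 4 were higher in winter and the other 4 were not called. The share higher was 41.3% over the 46 members and 19.6% over all tested genes. USP27X, an X-linked relative of USP22 that works with the same partner proteins on histone H2B, gave the largest rise of the family. With 30 to 150 reads per library, it lay at 1.32, 1.58 and 1.86 CPM in summer and at 2.08, 2.88 and 4.88 CPM in winter, and the seasons did not overlap. The change was from 0.71 ± 0.18 to 1.64 ± 0.46 on the log2 CPM scale (mean ± SD, n = 6), a log2FC of 0.97 (SE = 0.24, adjusted p = 0.00879), and single bears ran from 0.40 to 1.81. USP22 itself, the H2B deubiquitinase of the SAGA complex, was at 0.04 (SE = 0.13, adjusted p = 0.830), with 3 of 6 bears higher, and the third relative, USP51, at 0.24 (adjusted p = 0.338). Within this trio USP27X gained on USP22 in 6 of 6 bears, from 1 USP27X read per 61.6 USP22 reads to 1 per 32.8 at the median. This ratio follows from the changes of both genes in each bear and adds no separate result.

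USP44 and USP49, related H2B deubiquitinases, were counted at 37 to 167 reads per library and 16 to 46 reads per library. USP44 lay at 1.48, 2.54 and 3.91 CPM in summer and 3.10, 4.66 and 6.12 CPM in winter (log2FC 0.81, SE = 0.22, adjusted p = 0.0141), and USP49 at 0.692, 0.871 and 1.23 CPM in summer and 1.14, 1.53 and 1.77 CPM in winter (0.76, SE = 0.21, adjusted p = 0.0152). Both were higher in 6 of 6 bears with overlapping seasons, although bear 1316 moved by only 0.0087 for USP44, and USP44 was not called without bear 1305 (adjusted p = 0.0525, 0.004995 to 0.0525 over the alternatives). USP44 went from 1.40 ± 0.53 to 2.20 ± 0.35 on the log2 CPM scale (mean ± SD, n = 6), and USP49 from −0.04 ± 0.29 to 0.68 ± 0.22 on the log2 CPM scale (mean ± SD, n = 6). USP3, which removes ubiquitin from histone H2A, was higher by 1.46-fold (adjusted p = 0.00860), and its winter libraries, at 11.9 to 17.5 CPM, were all above its summer libraries at 8.02 to 11.5. USP16 and USP21, which act on H2A, were not called, with a log2FC of 0.09 and −0.16.

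**Figure D3:**
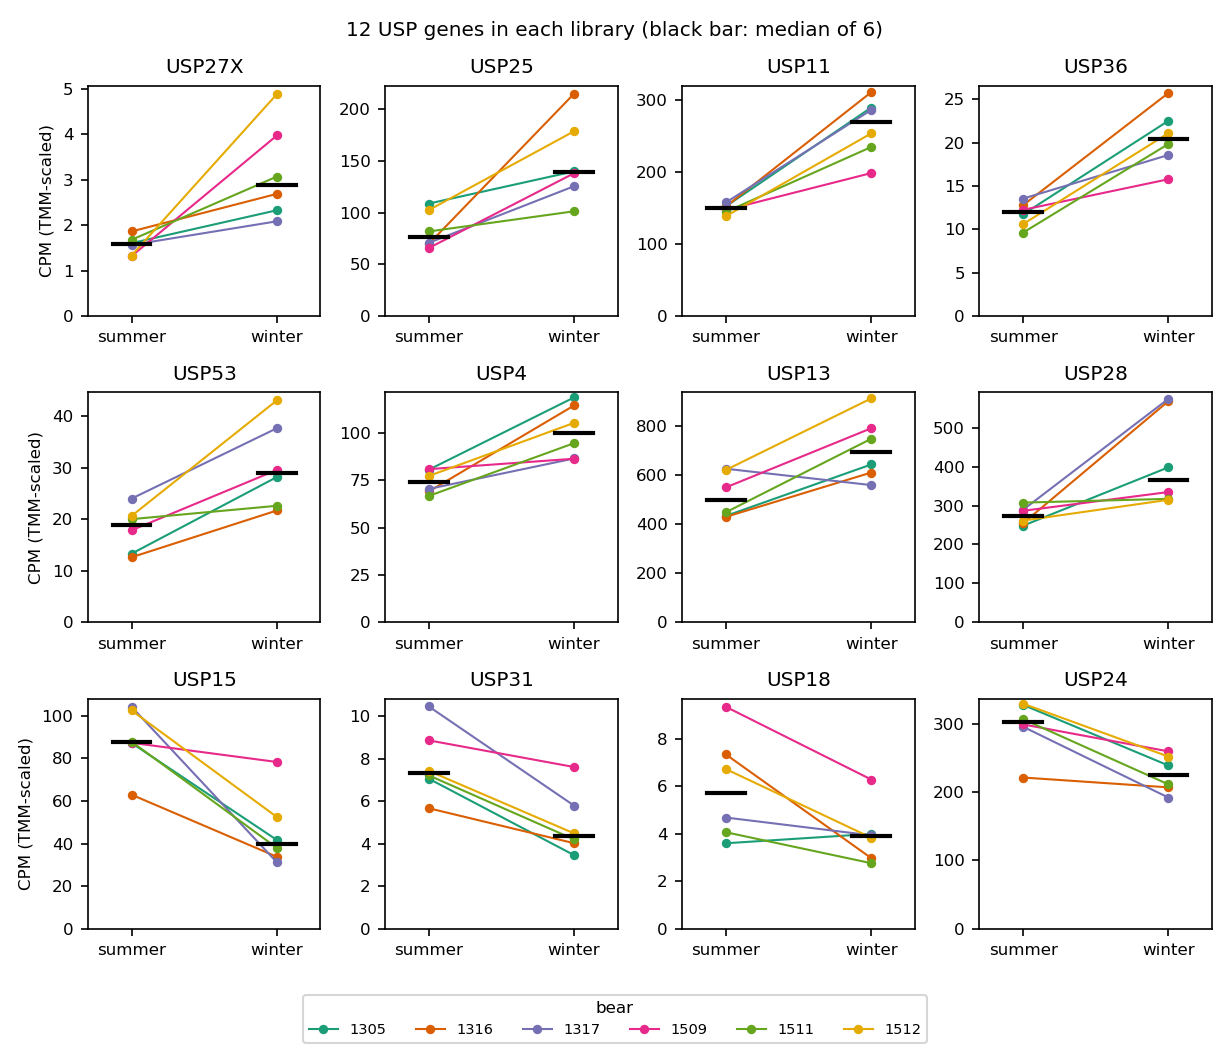
CPM after TMM scaling (y axes, each from 0) of 12 USP genes in the summer and winter library of each of 6 bears (coloured lines), with black bars for the season medians. USP11 rose from a median of 149.6 to 269.9 CPM and USP15 fell from 87.5 to 39.8 CPM.

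Of 8 members with a place in DNA repair, replication or the p53 pathway, 4 were higher and 1 was lower. These counts stand against 41.3% and 10.9% of the 46 members, and 19.6% and 21.2% of all tested genes. USP28, which stabilises MYC and takes part in p53 responses, lay at 248, 274 and 308 CPM in summer and at 315, 366 and 574 CPM in winter. The seasons did not overlap, and bears 1316 and 1317 reached 568 and 574 CPM while the other winter libraries were at 315 to 398. The log2FC of 0.56 (SE = 0.16, adjusted p = 0.0171) lost its call when bear 1305 (adjusted p = 0.0564) or 1316 (0.0506) was left out, and the alternatives spanned 0.00167 to 0.0564. Its closest relative USP25, an enzyme of ER-associated degradation with a known muscle isoform, rose from 65.6, 76.2 and 109 CPM in summer to 101, 139 and 215 CPM in winter. This was from 6.35 ± 0.31 to 7.18 ± 0.38 on the log2 CPM scale (mean ± SD, n = 6), a log2FC of 0.83 (SE = 0.16, adjusted p = 0.00249). Bear 1316 gave the largest difference for both USP25 and USP28, at 1.63 and 1.16.

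USP37, a cell cycle enzyme that protects cyclin A, lay at 4.25, 5.75 and 8.65 CPM in summer and 6.62, 10.0 and 12.3 CPM in winter, from 2.63 ± 0.40 to 3.30 ± 0.31 on the log2 CPM scale (mean ± SD, n = 6), with a log2FC of 0.68 (SE = 0.17, adjusted p = 0.00884) and 6 of 6 bears higher. USP7, which trims MDM2 and p53, rose by 0.32 log2 units (SE = 0.10, adjusted p = 0.0266) and USP48, a nuclear enzyme, by 0.32 (SE = 0.10, adjusted p = 0.0263). Both were higher in 6 of 6 bears, but neither was called with library totals (adjusted p = 0.156 and 0.162) or without a filter on low counts (0.0566 and 0.0575). Leaving out 1 bear also ended these calls, for USP7 without bear 1305 (0.0809) or 1316 (0.072), and for USP48 without bear 1305 (0.0622), 1316 (0.0633), 1511 (0.0514) or 1512 (0.0529). Over all alternatives the adjusted p ran from 0.000582 to 0.156 for USP7 and from 0.00149 to 0.162 for USP48.

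USP10, the member that was lower in this group, deubiquitinates p53 in the cytoplasm and binds the stress granule protein G3BP1. It lay at 36.1, 37.2 and 38.7 CPM in summer and at 26.9, 29.8 and 32.9 CPM in winter. The summer libraries were close together, and all winter libraries were below them, the one such case among the members (8.21% of all tested genes). The fall from 5.23 ± 0.04 to 4.90 ± 0.10 on the log2 CPM scale (mean ± SD, n = 6) was small, −0.33 (SE = 0.09, adjusted p = 0.0152), and without bear 1512 its adjusted p was 0.0533 (0.000112 to 0.0533 over the alternatives). Both G3BP genes were lower as well, G3BP1 at −0.54 (adjusted p = 0.00408) and G3BP2 at −0.77 (adjusted p = 0.000886), in 6 of 6 bears each. USP45, which acts on the repair nuclease ERCC1, had 20 to 95 reads per library and a log2FC of 0.56 (SE = 0.23, adjusted p = 0.0725), called in the fit without bear 1317 and no other (0.0338, with 0.0338 to 0.198 over the alternatives). USP1 and USP47 were not called, with a log2FC of 0.19 and −0.03.

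Of the 8 members tested that act at endosomes, the ER or on receptor trafficking, 4 were higher, USP25, USP46, USP33 and USP8. In comparison, 41.3% of the 46 members and 19.6% of all tested genes were higher. USP46 rose by 1.48-fold (adjusted p = 0.00359), and its close relative USP12 was at 1.11-fold (adjusted p = 0.309), not called. Both need the activator WDR48, which was higher at 0.41 (adjusted p = 0.0117), whereas their second activator WDR20 was at −0.06 (adjusted p = 0.764). USP33 rose without overlap between seasons, from 15.2 to 20.0 CPM in summer to 20.3 to 27.9 in winter (FC = 1.39, adjusted p = 0.00428). Its relative USP20 was at 0.05 (adjusted p = 0.830), with bear 1509 at −0.80 and 4 of 6 bears higher. USP8, which sorts receptors at the endosome together with STAM proteins, was higher by 0.39 log2 units (SE = 0.10, adjusted p = 0.0127), and both STAM (0.49, adjusted p = 0.0132) and STAM2 (0.56, adjusted p = 0.00135) were higher in 6 of 6 bears. Library totals (0.0803) and the omission of bear 1305 (0.0529) ended the USP8 call, and the alternatives spanned 0.00376 to 0.0803.

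USP19, an ER-anchored enzyme that has been tied to muscle wasting in rodents, was not called. It lay at 46.2, 48.4 and 58.0 CPM in summer and at 40.8, 63.4 and 76.8 CPM in winter, a log2FC of 0.30 (SE = 0.13, adjusted p = 0.0952). It was higher in 5 of 6 bears, and the winter library of bear 1509 was the lowest of all 12 at 40.8 CPM. Without bear 1509 the adjusted p was 0.0108, and DESeq2 without the paired term gave 0.045 (0.0108 to 0.258 over the alternatives). USP30, which sits on the outer mitochondrial membrane and opposes mitophagy, was at 0.42 (SE = 0.20, adjusted p = 0.117), with 5 of 6 bears higher and a level of 4.47 CPM in bear 1509 against 7.13 to 9.74 in the other winter libraries. Its adjusted p was 0.00547 without that bear and 0.0496 in DESeq2 without the paired term (0.00547 to 0.299 over the alternatives). USP35, the other member assigned to mitochondria, had 13 to 53 reads per library and was at −0.59 (SE = 0.23, adjusted p = 0.0634), lower in 5 of 6 bears. It was called without the paired term in edgeR (adjusted p = 0.0446) and in DESeq2 (0.0447), and the other alternatives ran up to 0.165.

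Of the 3 members grouped under free ubiquitin chains and the proteasome, USP13 by its relation to USP5, 2 were higher. Among the 46 members 41.3% were higher, and among all tested genes 19.6%. USP13, which takes part in autophagy, lay at 431, 500.2 and 627 CPM in summer and at 560.3, 697 and 914 CPM in winter. Its log2 fold change was 0.46 (SE = 0.13, adjusted p = 0.0197), with 5 of 6 bears higher, and bear 1317 at −0.16. Its call was lost when scaled by library totals (adjusted p = 0.0777) or without bear 1305 (0.0706), 1511 (0.0566) or 1512 (0.0596), and the alternatives spanned 0.00219 to 0.0777. USP5, its relative that takes apart unanchored ubiquitin chains, rose by 0.32 log2 units (SE = 0.10, adjusted p = 0.0322), with 5 of 6 bears higher, and this was the least stable call of the family. It was lost in 9 of 14 alternatives, among them the fit without the paired term (0.0692) and those without bear 1305 (0.131), 1316 (0.056), 1317 (0.0604), 1511 (0.0569) or 1512 (0.0827), and its adjusted p ranged up to 0.14, with library totals. USP14, the deubiquitinase bound to the proteasome, varied little. It was at 75.6, 84.6 and 95.0 CPM in summer and 74.7, 81.9 and 98.1 CPM in winter, with a log2FC of −0.03 (SE = 0.09, adjusted p = 0.835) and single bears from −0.12 to 0.09.

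The reads of USP13 and USP28 made up a large part of all reads counted on the family, a share that also depends on transcript length. USP13 held 15.1 to 19.9% of them in summer and 16.99 to 24.8% in winter, and USP28 held 8.36 to 10.8% and 8.55 to 17.4%. The summed level of the 46 members was 2491.4 to 3143.3 CPM in summer (median 2920.2) and 3096.0 to 3682.6 CPM in winter (median 3499.6). Without these 2 genes it was 1806.3 to 2243.1 and 2029.6 to 2454.0 CPM.

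USP36, a nucleolar enzyme needed for ribosome production, lay at 9.62, 11.99 and 13.5 CPM in summer and at 15.8, 20.5 and 25.7 CPM in winter, without overlap. It rose from 3.56 ± 0.18 to 4.35 ± 0.24 on the log2 CPM scale (mean ± SD, n = 6), a log2FC of 0.80 (SE = 0.13, adjusted p = 0.000804). Its relative USP42 was at −0.01 (adjusted p = 0.963), and USP39, a splicing factor without peptidase activity, at −0.16 (adjusted p = 0.242), both not called. USP34, which acts on axin in Wnt signaling, was higher in 6 of 6 bears, with a rise of 0.56 log2 units (SE = 0.12, adjusted p = 0.00366). USP53, a tight junction protein, lay at 12.6, 19.0 and 24.0 CPM in summer and 21.7, 28.9 and 43.1 CPM in winter, with overlapping seasons, and rose from 4.15 ± 0.37 to 4.89 ± 0.39 on the log2 CPM scale (mean ± SD, n = 6), a log2FC of 0.75 (SE = 0.13, adjusted p = 0.00127) that was positive in 6 of 6 bears. The related USP54 was at 0.15 (adjusted p = 0.469) with 4 of 6 bears higher.

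USP31, one of the least studied members, fell from 5.68, 7.33 and 10.5 CPM in summer to 3.47, 4.35 and 7.62 CPM in winter. The change was from 2.95 ± 0.30 to 2.28 ± 0.40 on the log2 CPM scale (mean ± SD, n = 6), a log2FC of −0.68 (SE = 0.15, adjusted p = 0.00423), lower in 6 of 6 bears. As for USP15, the winter library of bear 1509 was the highest of its season, at 7.62 CPM, and the others were at 3.47 to 5.80. USP2, whose transcripts are known to follow the circadian clock, was not called, at −0.27 (SE = 0.12, adjusted p = 0.0939) with 5 of 6 bears lower. The hours of the biopsies were not used here. In all, 17 members were called in neither the paired fit nor any of the 14 alternatives, with log2 fold changes between −0.27 and 0.24.

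**Figure D4:**
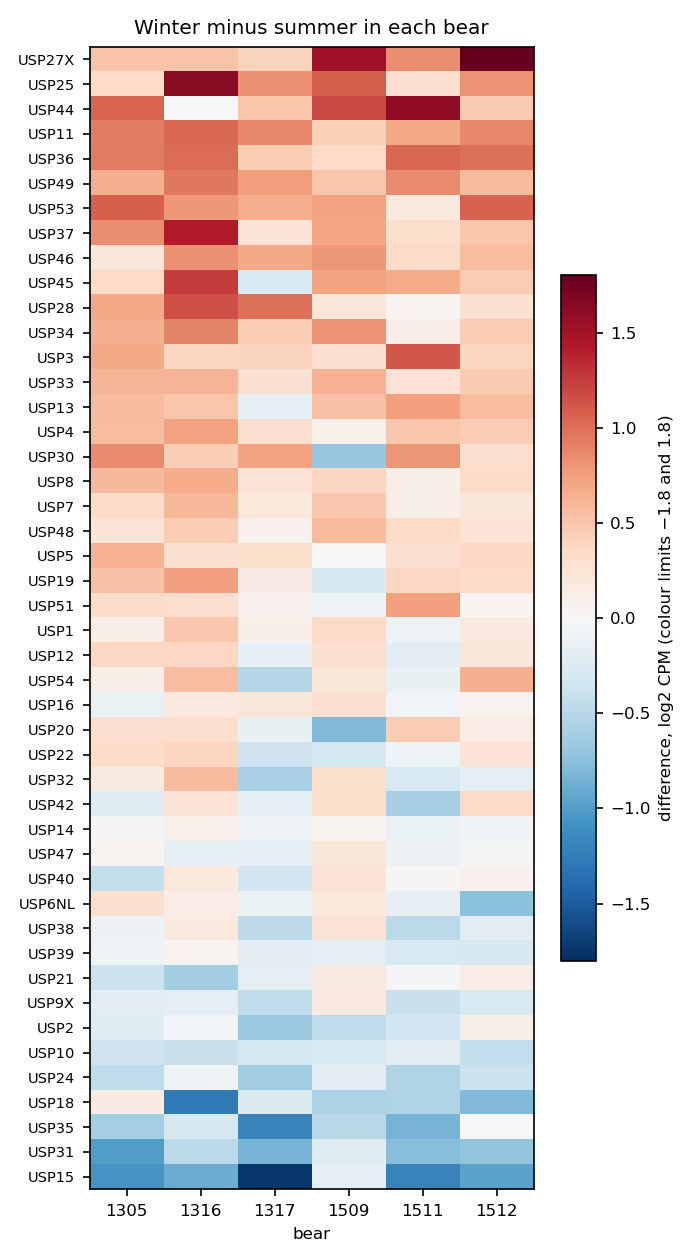
Winter minus summer difference in log2 CPM (colour, red for higher in winter) of the 46 USP genes (rows, in the order of the fold change) in each of 6 bears (columns). Between 23 (bear 1317) and 36 (bear 1316) of the 46 members were higher in winter in a bear, and in bear 1509 USP15, at −0.16, was paler than in the other bears.

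Across bears, 17 members were higher in all 6 and 4 were lower in all 6, where 18.4% and 19% of all tested genes were. All winter libraries lay above all summer libraries for 7 members, USP27X, USP11, USP36, USP28, USP3, USP33 and USP4 (9.12% of all tested genes, and 10.1% of those read as often as the members), and below them for 1, USP10. The 2 directions together made 17.3% of all tested genes and 20.1% of those read as often. The number of members higher in winter ranged from 23 of 46 in bear 1317 and 25 in bear 1511 to 36 in bear 1316. The members' median difference ran from 0.00271 to 0.39 on the log2 scale, against −0.026 to 0.0068 over all tested genes. In bear 1317 it was 0.00271 for the members and 0 for all tested genes. Of the 19 genes called higher, 18 were higher in bear 1317, 18 in bear 1509 and 19 in each other bear.

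The other deubiquitinase classes, taken by symbol, gave 38 tested genes, of which 12 were higher and 4 lower in winter, where 19.6% and 21.2% of all tested genes were, and the median log2FC was 0.07, against −0.01 over all genes. The counts of single classes and of the partner proteins stand against the same shares. Of the UCH enzymes, UCHL1 was higher at 0.95 (adjusted p = 0.000243) and UCHL5, which works at the proteasome, at 0.83 (adjusted p = 0.000353), while UCHL3 was lower at −0.62 (adjusted p = 0.00726). In the OTU class, 3 of 15 were higher and 1 was lower, with ZRANB1 at 0.91 (adjusted p = 0.000668) and OTUD7A at −0.82 (adjusted p = 0.0144). Of 9 genes listed under the JAMM class, not all of them known proteases, 4 were higher and 1 was lower. EIF3H, a subunit of a translation initiation factor, was at 1.16 (adjusted p = 0.000153) and MPND at −0.94 (adjusted p = 0.00258). Of the Josephins 1 of 3 was higher (ATXN3, 0.48, adjusted p = 0.00700), and of the MINDY enzymes 1 of 4 was lower (MINDY4, −1.10, adjusted p = 0.00648). PAN2 and CYLD, listed for a USP fold without a USP number, were higher at 0.62 (adjusted p = 0.000622) and 0.54 (adjusted p = 0.00142). A fold does not show activity, and whether each of the 38 listed genes encodes an active deubiquitinase was not examined.

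Of 13 partner proteins of USPs, 4 were higher and 2 were lower. The largest rise was that of STAM2 and the largest fall that of G3BP2. GMPS, a partner of USP7, and ATXN7L3 and ENY2, which hold USP22 and USP27X in their active form, were not called, with a log2FC of 0.05, −0.03 and −0.10.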

How the data were processed

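The data are RNA sequencing libraries of brown bear vastus lateralis, 1 from winter and 1 from summer for each of 6 bears. The authors prepared stranded mRNA libraries, aligned single reads to the assembly ASM358476v1 with TopHat2 2.1.1 and counted reads mapped to the opposite strand of each gene with featureCounts 1.6.2. The deposited values are these raw counts, not normalized or filtered. The fit kept genes with 30 or more reads in total, the limit of the study's methods. Counts were scaled by TMM, and winter was compared with summer by glmQLFit and glmQLFTest (edgeR 4.0.16, R 4.3.3) with season and bear as terms. Standard errors are the absolute log2 fold change divided by the root of the F statistic. Log2 CPM used a prior count of 2.

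The bear was a paired term because each animal gave a library in either season. Both libraries of a bear deviated together from their season means, with correlations of 0.0903 to 0.344 and a median of 0.237. For libraries of different bears the correlations were −0.214 to 0.142, with a median of −0.0634, so the ranges overlapped. The lowest chi-square per gene between libraries of a season was 35.8, far above counting noise, so none is a copy. Depth per library sets the precision of a count, which is lowest for the members under 100 reads. The alternatives were edgeR without the bear, DESeq2 1.42.0 with and without it, limma voom (limma 3.58.1), RLE, library totals, no filter, filterByExpr, and each bear left out. The fits were also run on simulated data, in which the planted changes were larger than those of most members. That run does not show how well changes of the members' size are found. The labels do not assign sequencing lanes, so a lane effect was not tested.

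The members, the role groups and the lists of other deubiquitinases, partners and markers were chosen with earlier results of these data known. Named genes were every called member, with levels for the 8 largest rises and 8 largest falls (5 were called lower), the 7 members that the study lists (USP4, USP9X, USP11, USP15, USP18, USP14 and USP19), members called in an alternative, and the largest called rise and fall of each other list. Other genes were named after their values were seen, as relatives or partners of a named member. No sequence or genome position was used. A list of ubiquitin and E1 genes is not reported here.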

Additional observations from a re-analysis of the deposited data

Results flagged for a closer look

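A single library stood apart from the other 5 of its season, by Dixon's 95% criterion on log2 CPM, in 6 of the 92 combinations of member and season, where chance flags about 1 in 20. In summer these were bear 1316 for USP24, at 7.79 log2 CPM, with the other 5 at 8.21 to 8.36, and again bear 1316 for USP15, at 5.98 log2 CPM, with the other 5 at 6.45 to 6.70. In winter, bear 1511 was low for USP34, at 6.23 log2 CPM, with the other 5 at 6.64 to 6.82, and for USP54, at 4.11 log2 CPM, with the other 5 at 4.68 to 4.95. Bear 1509 was low for USP19, at 5.35 log2 CPM, with the other 5 at 5.94 to 6.26. Bear 1305 was high for USP22, at 7.06 log2 CPM, with the other 5 at 6.41 to 6.64.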

How the results depend on the processing

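Over 14 alternatives, 12 of the 19 members called higher and 3 of the 5 called lower kept their call in each, and no called member changed direction. The members higher in winter numbered 14 with library totals and 16 to 20 with other tools, scaling or filters, and 12 to 21 when 1 bear was left out, against 19. The members lower in winter numbered 5 in each fit with all bears and 3 to 5 when 1 was left out. The stricter limits left 11 higher and 2 lower. Under these limits library totals gave 4 higher, against 15 and 16 in DESeq2 with and without the bear and 4 to 10 when 1 bear was left out. The number lower was 1 in the fit without the replicate block, 3 in DESeq2 without it, and 1 to 2 when 1 bear was left out. Without the replicate block edgeR called 18 members higher and 5 lower, losing USP5 and USP18 and gaining USP35. Bears 1305 and 1512 moved these counts most; the cause was not tested. The other deubiquitinases called higher numbered 11 to 12 and those called lower 4 to 5 over these alternatives, and 3 were lower under the stricter limits. Library totals moved the median of all genes to −0.08. Depth limits the members under 100 reads in a library, such as USP49, USP35, USP45, USP51, USP27X and USP18.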
